A study of Mus musculus with 8 samples.

Results

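The mRNA levels of 8 adipocyte genes were followed in RNA-seq libraries of medial knee cartilage caps. The genes were chosen by name from a list of marrow and fat pad adipocyte transcripts, and all 8 were found among the 50462 gene identifiers of the count table. Each library came from 1 male C57BL/6J mouse, and the sample titles label all of them wild type (WT). Naive mice (n = 4) had no surgery and were taken at day 0, aged 11 weeks. DMM mice (n = 4) were taken at day 42, aged 17 weeks, after the left medial meniscus had been destabilised by cutting its tibial ligament, a surgical model of post-traumatic osteoarthritis. A sham-operated group was not analysed here, so surgery and age cannot be told apart.

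White adipocytes store triglyceride in a single large lipid droplet. The nuclear receptor PPARγ drives their differentiation, the perilipins and CIDEC coat and enlarge the droplet, lipoprotein lipase and FABP4 bring in and carry fatty acids, and adiponectin and adipsin are secreted. In the knee such cells fill the infrapatellar fat pad and also lie in the bone marrow beneath the cartilage. Pparg, Lpl and Fabp4 are not confined to adipocytes, since macrophages or endothelial cells also express them.

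Adipocyte transcripts were present in every library, and none of the 8 genes passed the test between DMM and naive mice. Perilipin genes and Cidec had the widest spread, with the highest library 8.85 to 10.3 times the lowest, whereas Pparg varied 1.90-fold over all libraries. DMM replicate 2 had the highest level of all 8 genes, DMM replicates 1 and 3 came next for most of them, and DMM replicate 4 lay within or below the naive range for all 8. With 1 library left out in turn, 6 of the 8 fits called none of the genes, and the fits without DMM replicate 4 and without naive replicate 4 called 5 (15.2% of all genes) and 4 (16.4% of all genes).

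Coordinates of the genes on GRCm38 were taken from GENCODE vM21, in which all 8 are protein-coding. Adipoq, the adiponectin gene, lies at chr16:23146536-23158028 (+), and Cfd, which encodes adipsin (complement factor D), at chr10:79890853-79892655 (+). The droplet coat genes Plin1 and Plin4 lie at chr7:79720218-79732903 (-) and chr17:56100591-56109803 (-). Cidec, whose product fuses lipid droplets, lies at chr6:113424634-113435760 (-). Fabp4, the adipocyte fatty acid carrier, lies at chr3:10204088-10208576 (-), Lpl at chr8:68880491-68907448 (+) and Pparg at chr6:115360951-115490399 (+). Plin4 overlaps Hdgfl2 and Pparg overlaps Gm44079 on the opposite strand, and the sources used here do not say if reads were counted by strand. Of the 31-base words in the exons, 3.97% for Lpl, 1.79% for Plin1 and at most 0.288% for the other 6 genes occurred in another gene.

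RefSeq start sites on GRCm38.p6 were matched for 6 of the 8 genes (9 start sites). Fabp4 and Lpl were not matched. The 250 bases before each start were searched on both strands for letters bound by the adipogenic factors. TTGCNNAA, a C/EBP-type site, occurred before Plin1 (at -187 and -58), before the downstream start of Cidec (at -198) and before the downstream start of Pparg (at -215, and at -16 on the opposite strand), and in 9.56% of the 32851 promoters of the table. AGGTCA, the half-site of PPARγ and other nuclear receptors, occurred before the 2 upstream starts of Pparg (at -28 and -9) and in 14.0% of all promoters. Its direct repeat with 1 base between, the full PPAR site in its strictest spelling, occurred in none of the 9 windows and in 0.0335% of all promoters. The motifs do not overlap in these windows. TATAAA occurred in 1 window, before the middle Pparg start on the opposite strand, and in 12.4% of all promoters. The Plin1 match at -58, the 2 AGGTCA matches and the TATAAA match lie in bases that GENCODE places in an exon. A match is a description of letters and not a site of binding. The sequences below show the hormone gene and 3 droplet or regulator genes with and without the C/EBP-type letters, which are in capitals. They cover chr16:23146286-23146535 (+) for Adipoq, chr7:79732904-79733026 (-) for Plin1, without the bases next to the start that GENCODE places in an exon, chr6:113434765-113435014 (-) for Cidec and chr6:115421816-115422065 (+) for Pparg.
Adipoq: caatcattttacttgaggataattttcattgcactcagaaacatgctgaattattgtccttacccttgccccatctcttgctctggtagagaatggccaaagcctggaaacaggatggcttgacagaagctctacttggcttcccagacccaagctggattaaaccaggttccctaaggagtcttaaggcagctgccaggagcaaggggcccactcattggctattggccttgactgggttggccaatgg
Plin1: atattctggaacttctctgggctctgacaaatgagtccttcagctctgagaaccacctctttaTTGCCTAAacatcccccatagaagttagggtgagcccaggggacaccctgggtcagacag
Cidec, downstream start: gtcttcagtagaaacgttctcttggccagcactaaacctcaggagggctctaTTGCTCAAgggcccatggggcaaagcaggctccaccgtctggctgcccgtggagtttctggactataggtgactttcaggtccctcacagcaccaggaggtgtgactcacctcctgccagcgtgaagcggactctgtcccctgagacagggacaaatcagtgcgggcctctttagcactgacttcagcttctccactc
Pparg, downstream start: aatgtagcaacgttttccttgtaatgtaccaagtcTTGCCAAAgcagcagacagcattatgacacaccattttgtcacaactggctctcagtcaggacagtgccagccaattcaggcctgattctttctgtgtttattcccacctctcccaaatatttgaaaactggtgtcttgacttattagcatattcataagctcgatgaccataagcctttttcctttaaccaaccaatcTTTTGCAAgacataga

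Total estimated counts were 12479443 to 16548002 per library. The 8 genes took 0.0213% to 0.0467% of them in naive and 0.0254% to 0.0973% in DMM libraries. The most abundant identifier took 10.11% to 17.88% in naive and 4.31% to 8.652% in DMM libraries. Without it the shares of the 8 genes were 0.0259% to 0.0562% in naive and 0.0273% to 0.106% in DMM libraries. Normalised counts (estimated counts divided by DESeq2 size factors) are used below. Calls required both a DESeq2 p of at most 0.05 after Benjamini-Hochberg adjustment over all genes and at least a 1.5-fold difference. By this rule 13.7% of 17760 genes were called, and 7.75% were called higher in DMM. At an unadjusted p of 0.05 or less 33.0% of genes passed, and for 22.2% the 4 naive and 4 DMM values did not overlap. None of the 8 adipocyte genes was called, 5 of 8 had an unadjusted p of 0.05 or less, and for none did the groups stay apart. The edgeR quasi-likelihood test called 0 of 8 (4 at unadjusted p of 0.05 or less) against 11.3% of all genes, and limma-voom called 0 of 8 (3 at that p) against 11.7%. All 8 fold changes were positive, as were those of 8579 of the 17760 genes tested. Their median log2 fold change was 0.90 against -0.02 over all genes tested. The 8 signs are not independent, since DMM replicate 2 was the highest library for all 8 genes. Without that library the signs of Pparg and Lpl turned. In these bulk samples, fewer cells of a type and less RNA per cell cannot be told apart.

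The secreted hormones come first. Adipoq had normalised counts of 520.6, 425.7, 333.9 and 562.4 in naive replicates 1 to 4, and 601.2, 1105.1, 748.3 and 352.9 in DMM replicates 1 to 4. DMM replicates 1 to 3 thus lay above every naive library, and DMM replicate 4 lay inside the naive range. The log2 fold change was 0.61 ± 0.28 (SE, n = 4 per group), a 1.52-fold difference with a 95% interval of 1.04 to 2.24 (DESeq2, adjusted p = 0.109). Cfd, which cleaves factor B in the alternative complement pathway, had 466.1, 268.7, 411.0 and 986.4 in naive libraries. In DMM libraries it had 1069.8, 1764.1, 865.2 and 302.3. Naive replicate 4 was thus above DMM replicate 3, and DMM replicate 4 was below 3 of the naive libraries. The log2 fold change of Cfd was 0.91 ± 0.61 (SE), a 1.88-fold difference with a 95% interval of 0.822 to 4.28 (DESeq2, adjusted p = 0.307).

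The 3 droplet genes varied most. Plin1, the perilipin that gates access of lipases to the droplet, had normalised counts of 207.5, 186.3, 188.4 and 564.7 in naive libraries and 709.9, 1477.0, 824.9 and 167.0 in DMM libraries. Its lowest value of all was thus in a DMM mouse and its highest in another. The log2 fold change was 1.47 ± 0.69 (SE), or 2.77-fold with an interval of 1.08 to 7.09 (DESeq2, adjusted p = 0.112). Plin4, a coat protein of small nascent droplets, had 255.0, 206.2, 210.8 and 698.4 in naive and 985.2, 2132.8, 1050.4 and 223.8 in DMM libraries. Again naive replicate 4 stood above the other naive libraries and DMM replicate 4 fell among them. Its log2 fold change, 1.68 ± 0.72 (SE) or 3.20-fold with an interval of 1.21 to 8.51, was the largest of the 8 and also missed the threshold (DESeq2, adjusted p = 0.0758). Cidec had 65.96, 47.89, 61.0 and 209.8 in naive and 232.2, 446.1, 283.2 and 94.77 in DMM libraries. For this gene DMM replicate 4 was above naive replicates 1 to 3 and below naive replicate 4. The log2 fold change of Cidec was 1.46 ± 0.65 (SE), or 2.75-fold, with a 95% interval of 0.19 to 2.72 on the log2 scale (DESeq2, adjusted p = 0.0885).

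The fatty acid genes differed from each other. Fabp4 had normalised counts of 1247.9, 791.6, 698.9 and 1389.0 in naive and 1689.3, 2884.2, 2074.5 and 986.5 in DMM libraries. As with Adipoq, DMM replicates 1 to 3 lay above every naive library and DMM replicate 4 lay inside the naive range. Its log2 fold change was 0.89 ± 0.38 (SE), or 1.85-fold with an interval of 1.10 to 3.10 (DESeq2, adjusted p = 0.0769). Lpl, which releases fatty acids from circulating lipoproteins, had 1753.5, 1464.7, 1622.5 and 2150.9 in naive and 1987.8, 2949.8, 1784.7 and 1046.9 in DMM libraries. Only DMM replicate 2 lay above the naive range, and DMM replicate 4 lay below it. The log2 fold change of Lpl was 0.15 ± 0.25 (SE), or 1.11-fold with an interval of 0.793 to 1.56 (DESeq2, adjusted p = 0.736). Pparg, the master regulator, had 197.0, 179.6, 174.5 and 165.5 in naive and 155.9, 295.6, 189.3 and 156.1 in DMM libraries. It was the steadiest member, with 1 library, DMM replicate 2, apart from the rest. Its log2 fold change was 0.15 ± 0.22 (SE), or 1.11-fold with an interval of 0.824 to 1.49 (DESeq2, adjusted p = 0.701). Without DMM replicate 2 the signs of Pparg and Lpl turned, to log2 fold changes of -0.10 and -0.12, neither of which passed the test.

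**Figure D1:**
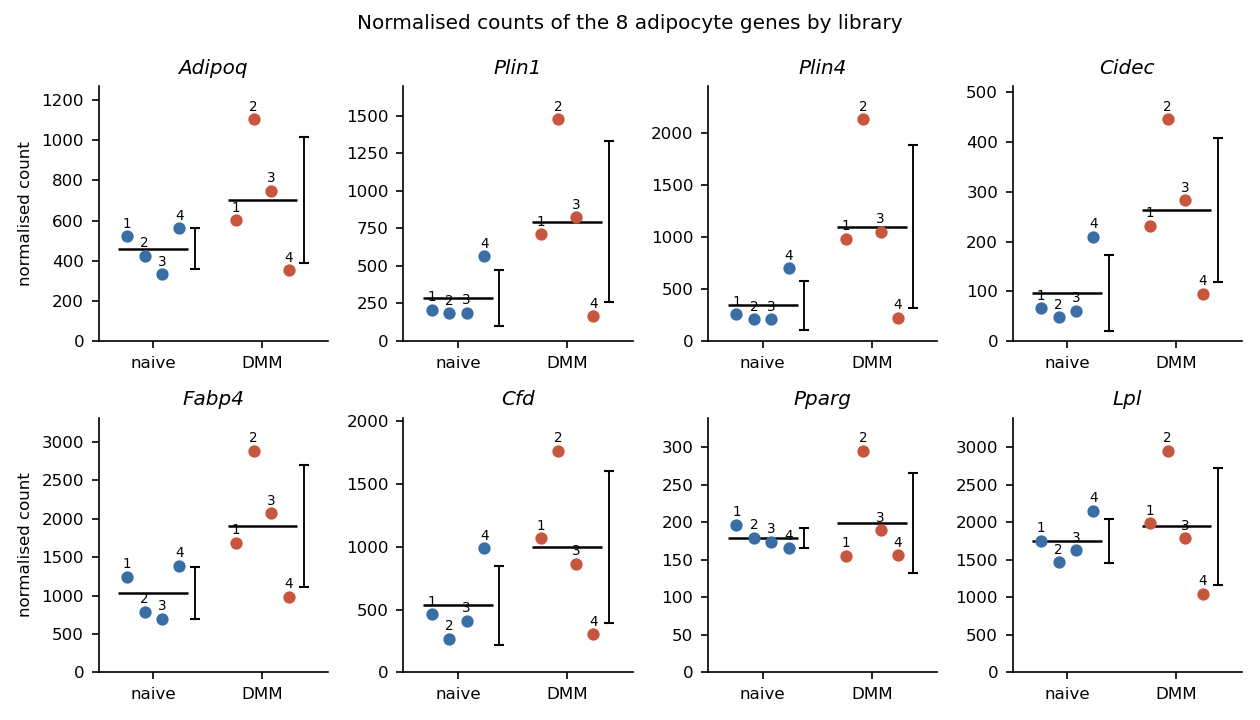
Normalised count (linear axis from 0) of each of the 8 adipocyte genes in the 4 naive (blue) and 4 DMM (red) libraries, with the replicate number over each point, the group mean as a line and the SD as a bar. DMM replicate 2 was the highest library for all 8 genes, and DMM replicate 4 lay within or below the naive values for all 8.

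The calls turned on single libraries. Without DMM replicate 4, DESeq2 called 5 of the 8 genes against 15.2% of all genes. These were Adipoq (log2 fold change 0.83, adjusted p = 0.00368), Plin1 (1.81, adjusted p = 0.0076), Plin4 (2.02, adjusted p = 0.0056), Cidec (1.74, adjusted p = 0.0286) and Fabp4 (1.10, adjusted p = 0.00024). Without naive replicate 4, DESeq2 called 4 of the 8 against 16.4% of all genes. These were Plin1 (2.03, adjusted p = 0.0148), Plin4 (2.29, adjusted p = 0.00684), Cidec (2.17, adjusted p = 8.94e-07) and Fabp4 (1.06, adjusted p = 0.0454). Leaving out any other library gave no call. With the total count as size factor, DESeq2 called Adipoq (log2 fold change 0.75, adjusted p = 0.0397) and Fabp4 (1.02, adjusted p = 0.0461) against 13.7% of all genes. Under that scaling the median log2 fold change over 18403 genes was 0.14, against -0.01 with the size factors used elsewhere. With only genes of at least 10 counts in 4 libraries fitted, Fabp4 was called (DESeq2, adjusted p = 0.0156). The share of all genes called is not given for that fit, so this call has no background beside it. Cfd, Pparg and Lpl were called in none of these fits.

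**Figure D2:**
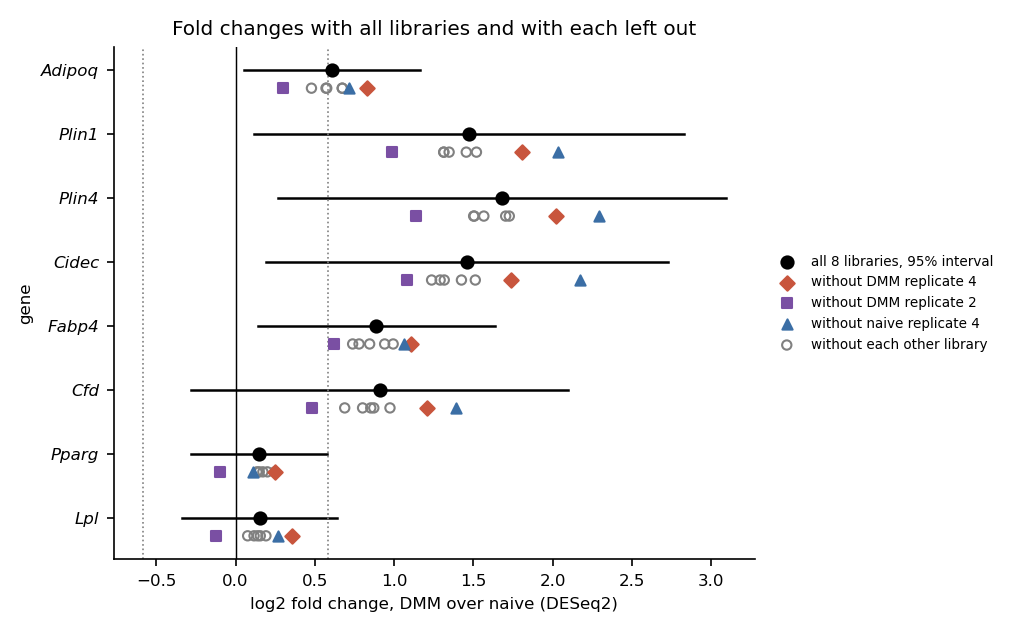
DESeq2 log2 fold change, DMM over naive, of each gene with all 8 libraries (black point with 95% interval) and with 1 library left out (symbols beneath), and dotted lines at 1.5-fold. The estimates without DMM replicate 4 or naive replicate 4 lie highest for Plin1, Plin4 and Cidec, and those without DMM replicate 2 lie lowest for all 8 genes and below 0 for Pparg and Lpl.

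Summed over the 8 genes, normalised counts were 4713.6, 3570.7, 3701.0 and 6727.1 in naive replicates 1 to 4 and 7431.4, 13054.7, 7820.5 and 3330.3 in DMM replicates 1 to 4. The lowest and the highest sum were thus both in DMM mice. With only Plin1, Plin4, Cidec and Cfd summed, naive replicate 2 was lowest (709.1) and DMM replicate 4 next (787.9). DMM replicate 2 stayed highest (5820.0). Which library was lowest thus depended on the genes summed. Plin1, Plin4, Cidec, Adipoq, Fabp4 and Cfd varied together over the 8 libraries, with Pearson's r between 0.860 and 0.997 for their 15 pairs on the log2 scale, the closest pair being Plin1 and Plin4. Lpl correlated with these 6 genes at 0.703 to 0.892. Pparg correlated with the other 7 genes at 0.442 to 0.741, and its rank correlations were 0.143 to 0.405. These are descriptions over 8 points that share library and size factor.

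Whether the members moved unequally was tested by the log2 ratio of each of the other 7 genes to Adipoq in the same library (pseudocount 0.5). Fabp4 relative to Adipoq was 1.13 ± 0.19 (SD, n = 4) in naive and 1.46 ± 0.05 in DMM libraries, a log2 difference of 0.33, and was higher in each DMM library than in every naive library (exact permutation test, two-sided p = 0.0286, adjusted p = 0.1 over 7 ratios). Lpl relative to Adipoq was 1.94 ± 0.24 in naive and 1.49 ± 0.20 in DMM libraries, a log2 difference of -0.45, and was lower in each DMM library than in every naive library (exact permutation test, two-sided p = 0.0286, adjusted p = 0.1). This p is the smallest that 4 against 4 libraries allow. The ratio differences were 0.98 for Plin4 and 1.001 for Cidec (exact permutation tests, p = 0.0571 and adjusted p = 0.1 for both). For Plin1 the difference was 0.76 (exact permutation test, p = 0.143, adjusted p = 0.2), for Pparg -0.41 (p = 0.2, adjusted p = 0.233) and for Cfd 0.30 (p = 0.543, adjusted p = 0.543). No ratio passed after adjustment. With a smallest p of 0.0286 and 7 ratios, none can pass unless several are fully apart. The adjusted result therefore cannot show that the members moved equally.

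Levels of different genes were compared per kilobase of the longest coding transcript. In naive libraries Fabp4 was highest at 1151.6 ± 377.3 normalised counts per kb (SD, n = 4), followed by Cfd at 578.2 ± 340.0, Lpl at 424.8 ± 71.3 and Adipoq at 356.5 ± 79.0. Plin1 (101.8 ± 65.9), Pparg (84.3 ± 6.23), Plin4 (59.5 ± 41.4) and Cidec (55.9 ± 44.3 normalised counts per kb) formed a lower tier. Among neighbours in this order the ranges over libraries overlapped except between Adipoq and Plin1, which were apart in the naive libraries. In DMM libraries the order was Fabp4 at 2130.1 ± 883.0, Cfd at 1085.0 ± 654.8, Adipoq at 543.3 ± 243.4, Lpl at 472.0 ± 190.5, Plin1 at 282.1 ± 190.9, Plin4 at 190.8 ± 136.4, Cidec at 153.5 ± 84.4 and Pparg at 93.8 ± 31.1 normalised counts per kb, and all neighbours overlapped. The order depended on the length used. Per kilobase of all annotated exons, Cfd ranked highest, followed by Adipoq and Fabp4, in both groups.

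**Figure D3:**
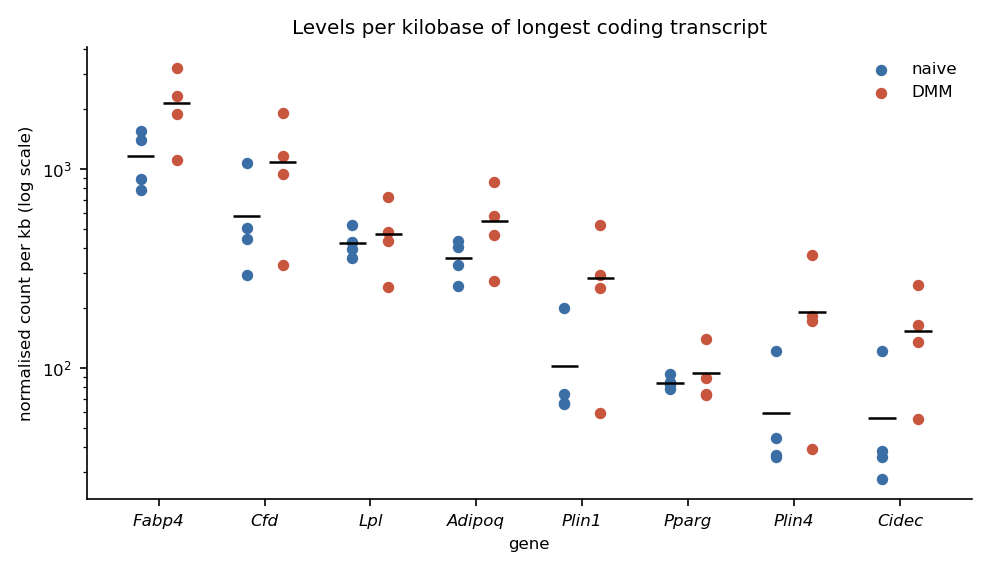
Normalised count per kilobase of the longest coding transcript (log axis) of each gene in the naive (blue) and DMM (red) libraries, with the group mean as a line. Fabp4 was highest in both groups, and Pparg had the smallest spread between libraries.

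Other adipocyte genes were read as a check of the label. Of 11 further adipocyte-restricted genes, 8 had an adjusted p, and 2 of these rose, with a median log2 fold change of 0.84. Over all genes, 7.75% were called higher in DMM. Trarg1, which regulates trafficking of the glucose transporter GLUT4, had normalised counts of 32.54, 39.91, 44.95 and 100.9 in naive and 125.2, 237.6, 167.1 and 60.47 in DMM libraries. On the log2 scale it rose by 1.44 ± 0.41 (SE; DESeq2, adjusted p = 0.00466), and the groups overlapped through DMM replicate 4. The call held in all 8 fits with 1 library left out and was lost in limma-voom. Mrap, an accessory protein of the melanocortin receptors, rose by 0.96 ± 0.35 (SE; DESeq2, adjusted p = 0.0341), but among fits with 1 library left out it was called only without naive replicate 4 or DMM replicate 4. Its adjusted p was 0.0569 to 0.145 in the other 6, and edgeR and limma-voom did not call it. Leptin (Lep) had 2.141 to 38.55 normalised counts in naive and 4.513 to 76.32 in DMM libraries, with the highest values in naive replicate 4 and DMM replicates 2 and 3. Slc7a10, an amino acid transporter of fat, had 63.5 in naive replicate 4 and 9.313 to 21.41 in the other naive libraries, so naive replicate 4 stood highest as it did for the droplet genes. Of the genes with an adjusted p, 2 had negative log2 fold changes and were not called, Retn, the resistin gene (-0.50), and Nrg4, a secreted growth factor of fat (-0.21). Retn had 9.632 to 30.61 normalised counts in naive and 5.375 to 20.73 in DMM libraries, with its lowest value in DMM replicate 2, the library highest for all 8 adipocyte genes. Adig, Adrb3 and Cidea stayed at or below 18.27 normalised counts. Of the brown adipocyte markers, Ucp1, the uncoupling protein that defines that cell, was at 0 in 7 libraries and at 0.8293 in DMM replicate 1. Of the 4 brown markers with an adjusted p, 1 (Slc36a2) rose, and the list summed to 551.4 to 995.3 in naive and 720.2 to 1001.8 in DMM libraries.

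**Figure D4:**
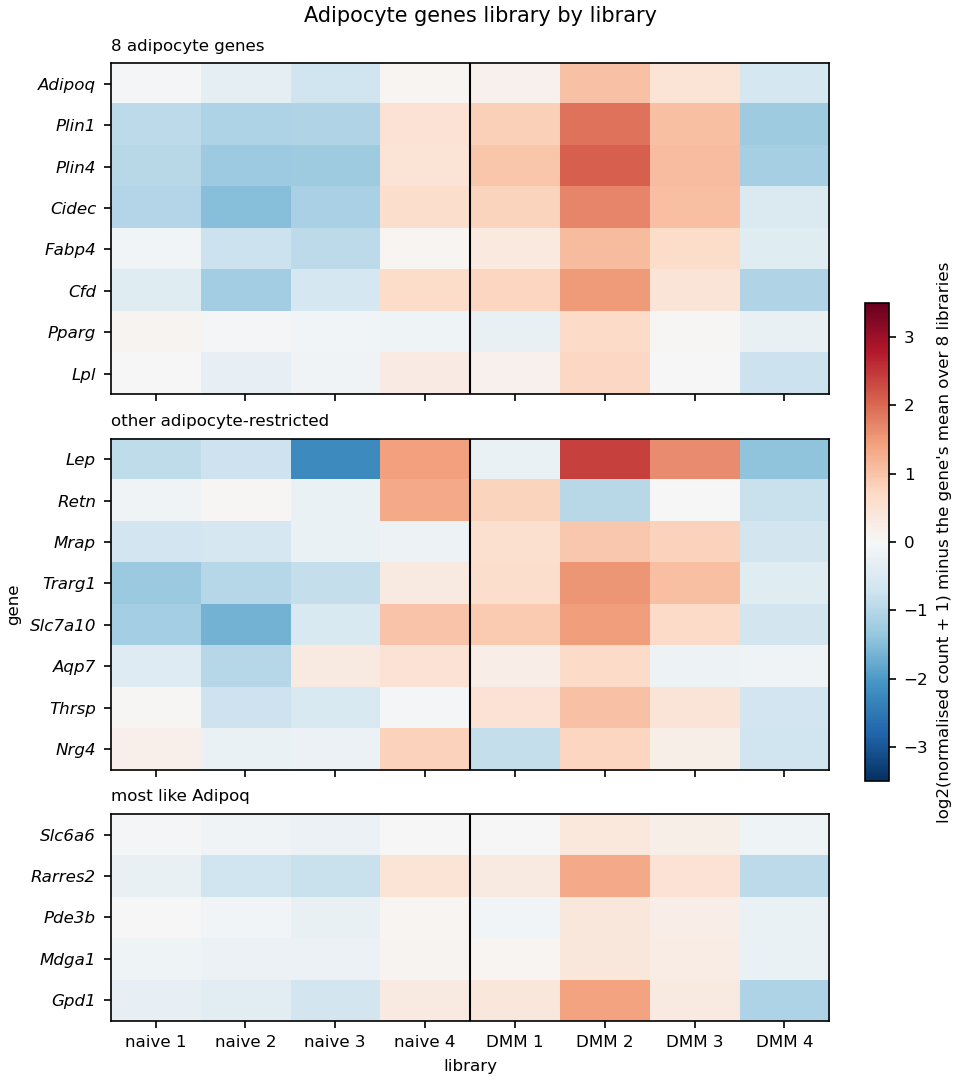
Log2(normalised count + 1) of each gene minus its mean over the 8 libraries (colour, red above and blue below the mean) for the 8 adipocyte genes, the 8 other adipocyte-restricted genes with an adjusted p and the 5 genes most like Adipoq. Naive replicate 4 and DMM replicates 1 to 3 are red for Plin1, Plin4, Cidec and Cfd, and DMM replicate 4 is blue for all 8 genes.

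The 5 genes whose pattern was most like that of Adipoq, of 13218 averaging 50 or more normalised counts, outside the 8 were Slc6a6 (Pearson's r = 0.975 over 8 libraries), Rarres2 (0.963), Pde3b (0.960), Mdga1 (0.955) and Gpd1 (0.951). Slc6a6 carries taurine, Rarres2 encodes the adipokine chemerin, Pde3b the phosphodiesterase through which insulin restrains lipolysis, and Gpd1 supplies glycerol phosphate for triglyceride. Rarres2 ranged from 78.52 in DMM replicate 4 to 374.1 normalised counts in DMM replicate 2, and Gpd1 from 90.25 to 514.9 in the same libraries. Slc6a6 (2397.4 to 3527.0), Pde3b (432.4 to 686.9) and Mdga1 (105.6 to 165.5) varied less. With 13218 genes ranked over 8 libraries, high correlations can arise by chance, and these were not tested. None of the 5 was called.

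Of 17 fatty acid and triglyceride synthesis genes with an adjusted p, 1 rose and 1 fell, and the median log2 fold change was 0.06. Over all genes, 13.7% were called in either direction. Me1, which makes NADPH for fatty acid synthesis, rose by 0.69 ± 0.23 (SE; DESeq2, adjusted p = 0.0186). It was not called in edgeR, nor without naive replicate 1 (adjusted p = 0.0656), naive replicate 2 (log2 fold change 0.50), DMM replicate 2 (adjusted p = 0.0768) or DMM replicate 3 (adjusted p = 0.0541). Mogat2, a monoacylglycerol acyltransferase, fell by 1.03 ± 0.30 on the log2 scale (SE; DESeq2, adjusted p = 0.00496) and groups that did not overlap. Scd1, the stearoyl-CoA desaturase that is among the most abundant transcripts of fat, had 3178.2, 2862.9, 3050.2 and 8366.6 normalised counts in naive and 9692.9, 20675.3, 11073.0 and 3777.1 in DMM libraries. It was high and low in the same libraries as Plin1 and was not called (log2 fold change 1.37; DESeq2, adjusted p = 0.101). For Fasn, the fatty acid synthase, it was 0.06 (DESeq2, adjusted p = 0.887). Of 10 genes of the lipid droplet and lipolysis outside the 8, none was called by DESeq2. Lipe, the hormone-sensitive lipase, had 248.3 to 357.2 in naive and 236.5 to 623.5 normalised counts in DMM libraries, with DMM replicate 2 highest and DMM replicate 4 lowest. Plin2, the perilipin found in most cell types, had 412.0 to 541.5 in naive and 465.7 to 544.9 in DMM libraries.

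Genes that handle lipoprotein lipase and its products rose in 3 of 14 cases and fell in none, with a median log2 fold change of 0.30. The share called higher over all genes was 7.75%. Angptl4, a secreted inhibitor of lipoprotein lipase, had 237.4, 220.8, 181.9 and 222.2 normalised counts in naive and 697.4, 465.5, 363.0 and 329.4 in DMM libraries, with no overlap. On the log2 scale it rose by 1.10 ± 0.23 (SE; DESeq2, adjusted p = 3.89e-05), and DMM replicate 4, low for the adipocyte genes, was above every naive library. Vldlr, a receptor for triglyceride-rich lipoproteins, rose by 0.89 ± 0.13 (SE; DESeq2, adjusted p = 4.69e-09). Lrp1, a large endocytic receptor, rose by 0.67 ± 0.17 (SE; DESeq2, adjusted p = 0.00137), and fell short of 1.5-fold without naive replicate 1 (log2 fold change 0.57). Gpihbp1, which anchors lipoprotein lipase on capillaries, had 26.76 to 43.09 in naive and 41.16 to 81.7 normalised counts in DMM libraries (DESeq2, adjusted p = 0.0609).

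Of 17 transcription factors that promote adipocyte differentiation, 3 rose and 1 fell, with a median log2 fold change of 0.18. For comparison, 13.7% of all genes were called in either direction and 7.75% were called higher. Zfp423, a factor of preadipocyte commitment, had 200.9 to 342.4 in naive and 376.4 to 514.2 normalised counts in DMM libraries and rose by 0.89 ± 0.19 on the log2 scale (SE; DESeq2, adjusted p = 5e-05). Klf9 rose by 0.76 ± 0.17 (SE; DESeq2, adjusted p = 0.000106). Ebf2, a factor of brown and beige precursors, rose by 1.05 ± 0.37 (SE; DESeq2, adjusted p = 0.0268). Without naive replicate 1, 2 or 3 or DMM replicate 1 or 3 its adjusted p was 0.0543 to 0.17, and edgeR and limma-voom did not call it. Klf5 fell by 0.65 ± 0.20 on the log2 scale (SE; DESeq2, adjusted p = 0.00991), and was not called with the total count as size factor, without naive replicate 2 (log2 fold change -0.58) or without DMM replicate 1 (-0.50). Cebpa, the partner of PPARγ in mature fat cells, had 519.1 to 815.5 in naive and 472.9 to 1121.2 normalised counts in DMM libraries (DESeq2, adjusted p = 0.461). Of 9 inhibitors of adipogenesis, 3 rose and none fell, with a median of 0.40. Wwtr1, which encodes the coactivator TAZ, rose by 1.03 ± 0.22 (SE; DESeq2, adjusted p = 6.25e-05) and the Notch target Hes1 by 0.80 ± 0.21 (SE; adjusted p = 0.00183). Wnt10b rose by 0.79 ± 0.31 (SE; DESeq2, adjusted p = 0.0488). Among fits with 1 library left out it was called only without naive replicate 4, with adjusted p of 0.0624 to 0.187 in the others, and edgeR and limma-voom did not call it.

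Of 12 receptors and paralogs of adiponectin, 6 rose and 1 fell, against 13.7% of all genes called in either direction. The list had a median log2 fold change of 0.81. All but 1 of the risers were C1q and TNF related genes, whose products share the domain structure of adiponectin and are made by many mesenchymal cells. C1qtnf3, also called CTRP3 or cartducin, had 17.59, 35.92, 17.12 and 37.42 normalised counts in naive and 169.2, 54.82, 223.1 and 86.64 in DMM libraries. On the log2 scale it rose by 2.32 ± 0.43 (SE; DESeq2, adjusted p = 3.48e-06), and DMM replicate 2, highest for Adipoq, was here the lowest of the DMM libraries. C1qtnf6 rose by 1.12 ± 0.24 (SE; DESeq2, adjusted p = 8.89e-05), C1qtnf1 by 0.96 ± 0.23 and C1qtnf5 by 1.39 ± 0.34. C1qtnf2 and Cdh13, a binding partner of adiponectin, were also called higher. C1qtnf12, the adipolin gene, fell by 1.18 ± 0.36 on the log2 scale (SE; DESeq2, adjusted p = 0.00774) and was not called in edgeR or without naive replicate 1 (log2 fold change -0.97). The signalling receptors Adipor1 (log2 fold change -0.37, adjusted p = 0.0529) and Adipor2 (-0.11, adjusted p = 0.569) were not called by DESeq2.

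Cfd acts in the alternative complement pathway, of which 7 other genes had an adjusted p and 1 was called. The share called over all genes was 13.7%. C3, the central component, had 6646.5, 8513.0, 8093.3 and 6469.7 normalised counts in naive and 3580.1, 4262.3, 5323.7 and 4926.0 in DMM libraries, and fell by 0.72 ± 0.15 on the log2 scale (SE; DESeq2, adjusted p = 5.15e-05), under the fold limit with the total count as size factor. Cfb, the substrate of adipsin, differed by 0.38 ± 0.28 on the log2 scale without passing the test (SE; DESeq2, adjusted p = 0.38). Of 11 genes of the marrow stromal cells from which marrow adipocytes form, 3 rose, against 7.75% of all genes called higher. Pdgfrb rose by 0.68 ± 0.15 (SE; DESeq2, adjusted p = 0.000132). Pdgfra rose by 0.62 ± 0.16 (adjusted p = 0.00183) and Gas6 by 0.60 ± 0.15 (adjusted p = 0.0013), both close to the fold limit. Pdgfra fell short of it without naive replicate 1 (0.53), DMM replicate 1 (0.57) or DMM replicate 3 (0.54), and Gas6 without naive replicate 2 or 3 or DMM replicate 1, 2 or 3 (0.53 to 0.58). Lepr (0.14, adjusted p = 0.488) and Cxcl12 (0.05, adjusted p = 0.895), which mark these cells, were not called.

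**Figure D5:**
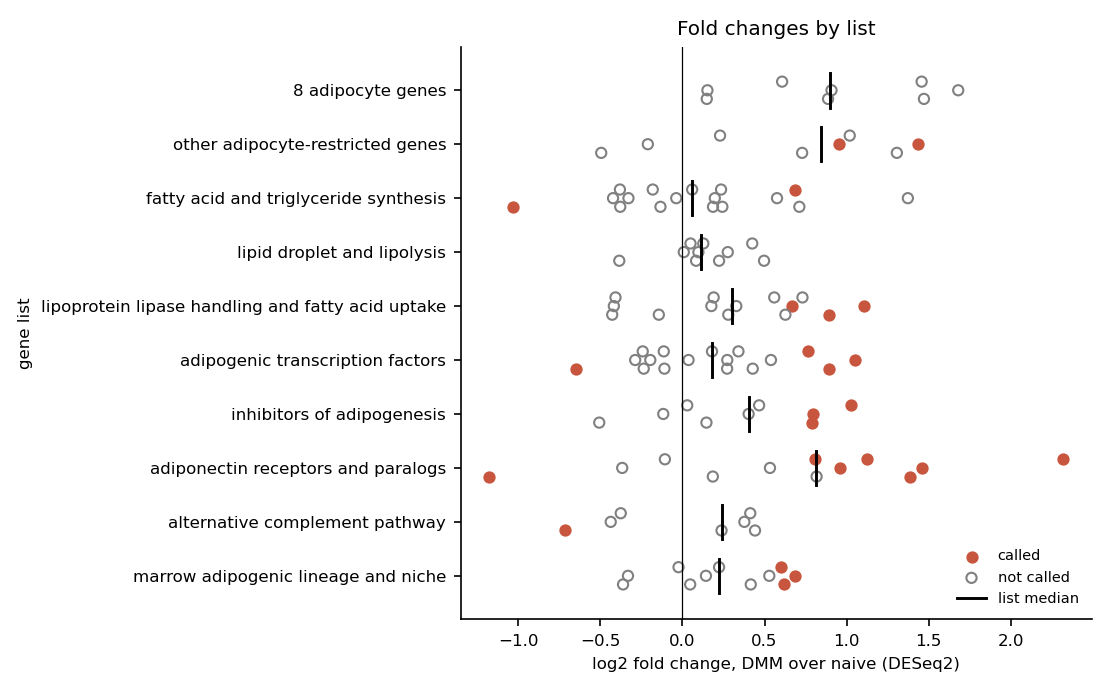
DESeq2 log2 fold change, DMM over naive, of every gene with an adjusted p in the 8 adipocyte genes and in 9 related lists (filled red, called; open grey, not called; black bar, list median). The 8 adipocyte genes have a median of 0.90 with no call, and the receptors and paralogs of adiponectin hold 7 calls.

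Markers of the other cell types in the tissue moved between the groups too. Over all genes, 7.75% were called higher in DMM and 13.7% in either direction. Summed normalised counts of 12 chondrocyte markers were 43843.4 to 74908.9 in naive and 96816.9 to 174662.8 in DMM libraries, and 5 of 12 rose. Sums of 10 neutrophil markers were 121831.6 to 183031.7 in naive and 53286.8 to 109818.2 in DMM libraries (9 of 10 fell), and 8 of 9 erythroid markers fell, with sums of 154670.0 to 302640.8 against 79744.9 to 171152.2. Both marrow lists were thus abundant in libraries labelled as cartilage. Of 12 endothelial markers, which bear on Fabp4, 6 rose and 1 fell. Their sums were 7238.5 to 8364.0 in naive and 7678.7 to 9095.5 in DMM libraries. Vwf, the 1 that fell, was the largest part of each naive sum (1852.7 to 3470.9 in naive and 1204.0 to 1685.1 in DMM libraries). Of the 12 log2 fold changes 10 were positive, with a median of 0.585. The overlap of the sums therefore does not show that the other endothelial markers were unchanged. Of 11 macrophage markers with an adjusted p, none rose and 1 fell, with sums of 7639.5 to 9042.5 in naive and 6845.6 to 8486.0 in DMM libraries, and Marco was at or below 1.134 throughout. Of 12 synovial and fat pad fibroblast markers 6 rose, with a median log2 fold change of 1.03. Their sums were 40182.4 to 111003.4 in naive, the highest in naive replicate 4, and 46358.1 to 82946.7 in DMM libraries, and most of each naive sum was Prg4 (30377.6 to 96845.1 in naive and 24672.3 to 48057.4 in DMM libraries). Prg4 was set apart after its values were seen. The other 11 markers summed to 7913.7 to 14158.3 in naive and 21137.5 to 41387.8 in DMM libraries. Dcn was the largest part of these sums (4728.5 to 8627.4 in naive and 12855.8 to 23655.8 in DMM libraries). Dcn, Lum, Thy1 and Ly6a were higher in every DMM than in every naive library, Pi16 was lower, and the rest overlapped. Over all genes tested, 22.2% did not overlap. Of 5 skeletal muscle genes with an adjusted p 2 rose, with sums of 91.46 to 539.4 in naive and 154.3 to 1506.0 in DMM libraries. The part of these cell types in the adipocyte gene levels was not tested.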

How the data were processed

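RNA was sequenced from medial knee cartilage caps of 4 naive and 4 DMM mice, 1 mouse per library. The deposited table holds estimated counts: the authors trimmed reads with Trimmomatic, pseudo-aligned them with Kallisto to a mouse GRCm38 transcriptome and summed transcripts to genes with tximport. The labels and the methods name different library kits, so the kit is uncertain. The submitters' processing notes name a human build, but the counts carry mouse gene identifiers. Which mouse build was used is therefore uncertain. Kallisto divides reads that fit several transcripts, so shared words can shift counts between genes.

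Estimated counts were rounded and fitted over all genes with the DESeq2 Wald test, which the methods name (here version 1.42.0, R 4.3.3), without covariates. Alternatives were edgeR (4.0.16) and limma-voom (3.58.1), other size factors and filters, no fold limit, the replicate number as a block and leaving out each library. Scripts were tested on simulated data. Lists held 211 genes, of which 208 were found. Named were the 8 genes, up to 4 called genes per list and direction by smallest adjusted p, genes whose role places a member, and the 5 genes most like Adipoq. C1qtnf2, Cdh13, Prg4, Vwf and several uncalled genes were named after their values were seen. The 8 genes and the lists were chosen with earlier results of these data known. SD bars measure the spread between the 4 mice of a group. The SE values and intervals of fold changes instead give the uncertainty of the DESeq2 estimate of the group difference.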

Additional observations from a re-analysis of the deposited data

Results flagged for a closer look

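A library stood apart from the other 3 of its group by Dixon's test in 8 of 92 groups of 4 tested, where chance alone gives about 4.6. Naive replicate 4 was high for Plin1 (564.7 normalised counts against 186.3 to 207.5), Plin4 (698.4 against 206.2 to 255.0), Cidec (209.8 against 47.89 to 65.96) and Mdga1 (132.7 against 108.1 to 111.7). Vldlr was low in naive replicate 2 (425.7 against 533.8 to 547.6) and Mogat2 was low in DMM replicate 1 (24.88 against 48.37 to 51.86). The summed skeletal muscle markers were high in DMM replicate 1 (1506.0 against 154.3 to 264.4), and the summed erythroid markers were high in DMM replicate 3 (171152.2 against 79744.9 to 85347.6). This test set DMM replicates 2 and 4 apart for none of the 8 adipocyte genes.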

How the results depend on the processing

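Of the 8 adipocyte genes, 0 were called with all libraries, against 13.7% of all genes. With the total count as size factor 2 were called (Adipoq, Fabp4), also against 13.7%. With only genes of at least 10 counts in 4 libraries 1 was called (Fabp4, DESeq2, adjusted p = 0.0156), without a share of all genes to set beside it. The number called was 0 to 5 when 1 library was left out. It was 5 against 15.2% of all genes without DMM replicate 4, and 4 against 16.4% without naive replicate 4. The number called stayed at 0 in edgeR, limma-voom, with TMM factors, without independent filtering and without the fold limit. With 1 library left out, the log2 fold change ranged from -0.10 to 0.25 for Pparg and from -0.12 to 0.36 for Lpl, and both were below 0 only without DMM replicate 2. The cause was not tested. The log2 difference of the summed level was 0.76, and 0.77 to 0.89 under other scalings and 0.41 to 1.012 with 1 library left out. The SD of the log2 sums between libraries within a group was 0.65, which is not an error of the difference.

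Calls among other adipocyte-restricted genes numbered 2, then 1 in edgeR and without independent filtering, 0 in limma-voom, and 1 to 4 with 1 library left out. For synthesis genes the 2 calls became 1 in edgeR, 4 without the fold limit, and 1 to 4 with 1 library left out. For droplet and lipolysis genes the 0 calls became 1 with the total count and without the fold limit, and 0 to 1 with 1 library left out. Lipoprotein lipase handling rose from 3 to 5 calls with the total count. Without the fold limit there were 3 complement and 5 marrow niche calls. Leaving out 1 library gave 2 to 4 calls among the transcription factors, 1 to 2 among complement genes and 1 to 4 among marrow niche genes.

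The replicate numbers did not pair the samples (correlations of deviations 0.0486, 0.0882, -0.174 and 0.126). With the replicate block, 0 of the 8 genes and 1 other adipocyte-restricted gene were called, and the adjusted p of the ratios to Adipoq was 0.438 to 0.75, for a smallest possible p of 0.125.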
